A study of Mus musculus with 6 samples.

Results

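Of 63840 regions called accessible in cultured mouse skeletal stem and progenitor cells (SSPCs), 1411 had a peak in all 3 middle-aged libraries and in none of the 3 young ones. They are called middle-aged-only regions here. Peaks of the 6 deposited lists were merged where they overlapped by at least 1 bp, and the regions were chosen by the presence or absence of a called peak alone. The word therefore describes peak calls, and a region without a call in the young libraries was not shown to be closed there. The 1411 regions were 2.21% of all regions, and 23 regions, or 0.0360%, had the opposite pattern. Both are counts under the rule and depended on the peaks used, with 219 and 178 when the lists were cut to equal length. They were compared with 4611 mixed regions, called in exactly 3 libraries drawn from both age groups, and with 22403 shared regions, called in all 6 libraries. The mixed regions were not balanced between libraries. Of them 3668 were called in 2 middle-aged and 1 young library, and young 1, 2 and 3 called 1554, 3457 and 543.

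The series profiled SSPCs by ATAC-seq, in which a transposase cuts and tags open DNA, to ask how chromatin accessibility changes with age. Both groups came from untreated C57BL/6 mice, and the labels name the groups young and middle-aged and give no age in weeks or months. Marrow of tibiae and femora was plated, and the adherent cells were taken at passage 1. The notes name at least 3 mice and do not say which library came from which mouse, so the 3 libraries of a group may share more than their age, and p-values measure only the spread between libraries.

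SSPCs are the stromal cells of bone and marrow from which osteoblasts, adipocytes and chondrocytes arise, and they also signal to blood stem cells. Most of the DNA elements that differ between cell states lie outside promoters, at enhancers bound by sequence-specific factors such as AP-1, TEAD and ETS proteins, while other open sites are bound by CTCF, the zinc finger protein that anchors chromatin loops and insulates domains. ATAC-seq reports both kinds as peaks, and a peak list alone does not say which factor occupies a site.

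The labelled cell type was only partly seen at marker promoters. A called peak lay within 1000 bp of a transcription start site (TSS) of Kitl in all 6 libraries, of Pdgfrb in 5, and of Cxcl12 and Pdgfra in 4, but in 0 libraries at Lepr and Prrx1, which mark marrow stromal and limb mesenchymal cells. Start sites of the blood cell genes Ptprc and Spi1 and of the endothelial gene Cdh5 had a peak in all 6 libraries. That of the endothelial gene Pecam1 had one in 3, young 3 and middle-aged 1 and 2. That of the macrophage gene Csf1r had one in 2, young 2 and 3, and in no middle-aged library. Of 21 stromal and progenitor genes, between 6 (young 3) and 14 (young 1) had such a peak per young library and between 13 and 15 per middle-aged library. For the 17 macrophage genes the ranges were 13 to 14 and 11 to 13. They were 8 to 9 and 9 to 10 for the 26 hematopoietic genes, and 4 to 8 and 8 to 9 for the 18 endothelial genes. The part of other marrow cells in the regions described below was not tested.

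The regions with the strongest calls are shown first, because their letters carry the clearest shared feature found. For regions among the 12 middle-aged-only ones with the highest mean rank, the 200 bp around the summit of the highest-ranking peak are printed from the + strand of the mouse reference GRCm38.p6 (mm10; RefSeq), named by the nearest protein-coding gene. Capitals mark the stretch closest to the consensus of CTCF, on either strand, where it is at most 2 letters off. The consensus, of 14 letters some of which allow a choice of base, was searched after these windows had been read.
Lhx8, chr3:154226473-154226672: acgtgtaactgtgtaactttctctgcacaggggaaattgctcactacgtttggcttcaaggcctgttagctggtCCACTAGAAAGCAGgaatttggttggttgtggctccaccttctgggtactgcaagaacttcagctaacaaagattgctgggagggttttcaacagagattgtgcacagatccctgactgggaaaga
Ccnh, chr13:84758650-84758849: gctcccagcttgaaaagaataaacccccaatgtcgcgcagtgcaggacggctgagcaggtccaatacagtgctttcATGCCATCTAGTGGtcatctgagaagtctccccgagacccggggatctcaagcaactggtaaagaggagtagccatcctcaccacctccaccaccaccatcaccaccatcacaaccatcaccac
Fbrsl1, chr5:110493881-110494080: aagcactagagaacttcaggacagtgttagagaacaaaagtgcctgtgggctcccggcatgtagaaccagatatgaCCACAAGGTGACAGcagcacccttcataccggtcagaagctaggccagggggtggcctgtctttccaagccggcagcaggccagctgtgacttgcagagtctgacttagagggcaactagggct
Rab3b, chr4:108870086-108870285: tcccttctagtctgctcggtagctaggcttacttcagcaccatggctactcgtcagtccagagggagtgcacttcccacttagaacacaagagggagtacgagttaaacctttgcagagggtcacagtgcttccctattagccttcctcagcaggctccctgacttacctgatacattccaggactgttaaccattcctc
Aplnr, chr2:85123278-85123477: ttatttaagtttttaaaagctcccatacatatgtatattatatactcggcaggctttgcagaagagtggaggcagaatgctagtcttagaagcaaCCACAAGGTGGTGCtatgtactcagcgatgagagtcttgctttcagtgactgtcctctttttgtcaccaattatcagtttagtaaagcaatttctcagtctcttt
Eif4e, chr3:138519313-138519512: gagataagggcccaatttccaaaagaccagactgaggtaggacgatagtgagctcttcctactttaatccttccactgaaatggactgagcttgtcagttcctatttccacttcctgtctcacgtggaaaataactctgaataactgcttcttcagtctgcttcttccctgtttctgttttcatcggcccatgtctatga
Rftn1, chr17:50189409-50189608: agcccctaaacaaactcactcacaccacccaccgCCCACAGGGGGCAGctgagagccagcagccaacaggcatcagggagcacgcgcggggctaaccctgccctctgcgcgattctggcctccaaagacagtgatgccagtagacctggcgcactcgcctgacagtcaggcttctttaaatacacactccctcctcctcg
Ddx21, chr10:62590324-62590523: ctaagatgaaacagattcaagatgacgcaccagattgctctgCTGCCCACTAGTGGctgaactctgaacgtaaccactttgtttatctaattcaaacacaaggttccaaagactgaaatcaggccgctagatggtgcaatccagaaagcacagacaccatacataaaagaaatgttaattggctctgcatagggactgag
Mical2, chr7:112369108-112369307: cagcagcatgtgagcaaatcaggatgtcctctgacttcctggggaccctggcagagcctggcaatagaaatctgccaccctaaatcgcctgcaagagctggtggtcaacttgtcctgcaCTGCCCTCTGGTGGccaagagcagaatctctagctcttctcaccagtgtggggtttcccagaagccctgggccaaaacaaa
Sfmbt2, chr2:10288601-10288800: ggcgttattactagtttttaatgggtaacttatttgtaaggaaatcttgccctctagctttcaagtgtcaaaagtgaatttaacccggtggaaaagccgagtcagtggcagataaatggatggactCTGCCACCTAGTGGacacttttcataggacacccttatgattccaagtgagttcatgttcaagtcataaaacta
Ccdc182, chr11:88252356-88252555: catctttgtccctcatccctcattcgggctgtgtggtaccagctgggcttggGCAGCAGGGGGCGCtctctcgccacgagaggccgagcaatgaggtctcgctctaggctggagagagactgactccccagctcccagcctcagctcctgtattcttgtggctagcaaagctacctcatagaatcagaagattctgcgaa

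Of the windows of the 12 regions, 2 held the CTCF consensus with no letter off, at Mical2 and Sfmbt2. With 1 letter off allowed the number was 5, adding Ccnh, Ddx21 and Ccdc182, and with 2 letters off it was 9, adding Lhx8, Fbrsl1, Aplnr and Rftn1. Those at Rab3b and Eif4e held none so close. Windows of genes with several middle-aged-only regions were read too. The 3 below, near Nog, which encodes the BMP antagonist noggin, in an intron of Bmf, a BCL-2 family member that promotes apoptosis, and nearest to Tgfbr2, the type II TGF-β receptor, were 0, 2 and 1 letters off the consensus and are printed for that reason. Their regions lay 1265, 1619 and 155605 bp from the start sites of these genes, in that order. The other windows read for these genes, 2 at Tgfbr2 and 1 each at Nog and Bmf, were over 2 letters off.
Nog, chr11:89303497-89303696: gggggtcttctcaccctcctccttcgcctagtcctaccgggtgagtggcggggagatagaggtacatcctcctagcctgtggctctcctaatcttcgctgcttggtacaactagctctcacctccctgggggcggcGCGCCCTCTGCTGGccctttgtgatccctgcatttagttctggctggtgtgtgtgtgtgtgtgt
Bmf, chr2:118545840-118546039: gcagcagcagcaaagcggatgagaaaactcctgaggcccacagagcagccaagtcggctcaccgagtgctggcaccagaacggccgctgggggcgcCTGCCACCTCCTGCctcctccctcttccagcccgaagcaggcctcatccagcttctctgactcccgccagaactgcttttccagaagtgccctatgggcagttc
Tgfbr2, chr9:116330865-116331064: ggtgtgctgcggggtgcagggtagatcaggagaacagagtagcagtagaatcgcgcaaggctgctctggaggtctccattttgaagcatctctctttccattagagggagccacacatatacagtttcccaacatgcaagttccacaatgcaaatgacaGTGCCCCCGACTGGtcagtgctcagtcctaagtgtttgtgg

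Across all 1411 middle-aged-only regions, 240 windows, or 17.0% (95% Wilson interval 15.1 to 19.1%), held the CTCF consensus with at most 1 letter off. The share was 13.2% (12.2 to 14.2%) in mixed regions, 5.95% (5.64 to 6.26%) in shared regions and 10.2% in all regions. The middle-aged-only regions thus had the highest share of these sets, and the intervals, which cover counting error over regions and not variation between mice, did not overlap. With no letter off the shares were 6.31%, 4.81% and 1.58%, and here the intervals of middle-aged-only (5.15 to 7.70%) and mixed regions (4.23 to 5.47%) overlapped. With 2 letters off they were 27.4%, 23.1% and 16.9%. A match is a description of letters and not evidence that CTCF was bound. The stretch lay near the summit, at a median of 22.5 bp, and within 25 bp in 142 of the 240 windows (59.2%). In shared regions it lay within 25 bp in 50.5% of 1332 windows.

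The CTCF consensus was as frequent in sets just outside the rule. It was 15.6% in 3855 regions called in 2 middle-aged and no young libraries and 15.9% in 3468 regions called in all middle-aged and 1 young library. Their intervals overlap that of the middle-aged-only regions, and the 717 regions whose 1 young library was young 1 had 18.3%. Regions called in 1 library alone held it in 11.9% of 10945 cases when the library was middle-aged and in 8.40% of 3748 when it was young. In the 335 regions called in 2 young and no middle-aged libraries the share was 8.36% (5.85 to 11.8%), and 3 of the 23 regions called in all young and no middle-aged libraries held it (4.54 to 32.1%).

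The share with the CTCF consensus was higher at higher ranks. The rank of a peak is its percentile by −log10 q within its own list, with 100 the strongest, and the mean was taken over the libraries that called the region. In middle-aged-only regions with a mean rank under 20 the CTCF consensus was in 6.80% of 485 windows, and it was in 19.1% of 440 windows at ranks of 20 to 30, in 24.9% of 333 at 30 to 40 and in 26.1% of 153 at 40 or more. Mixed regions had 7.44%, 14.4%, 19.8% and 21.4% in the same bins. The intervals of the 2 sets overlapped in every bin, and the share was higher in middle-aged-only regions in the 3 upper bins.

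**Figure D1:**
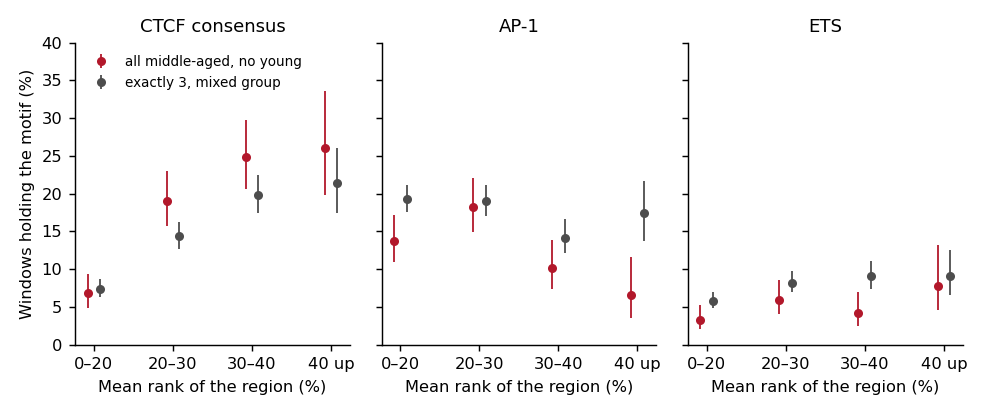
Share of 200 bp summit windows holding the CTCF consensus (at most 1 letter off), the AP-1 letters or the ETS letters, in percent, by the mean percentile rank of the region, for middle-aged-only (red) and mixed regions (grey). Points are shares and bars 95% Wilson intervals; the CTCF share rises with rank in both sets, from 6.80% to 26.1% in middle-aged-only regions, while AP-1 falls to 6.54% there at the highest ranks.

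AP-1 and ETS letters were less frequent than in mixed regions. AP-1 factors are dimers of Fos and Jun proteins that open many enhancers of stromal cells, and their site was searched as TGANTCA on both strands. It was in 13.5% of middle-aged-only, 18.1% of mixed, 13.5% of shared and 15.9% of all regions. Start sites hold few AP-1 letters, so shares were also taken outside TSS windows, where they were 14.9% (13 to 16.9%), 19.5% (18.3 to 20.8%) and 22.1% in middle-aged-only, mixed and shared regions. The letters GAGGAAGT, the type of ETS site that the myeloid factor PU.1 prefers, were in 4.82%, 7.48%, 8.28% and 7.10% of middle-aged-only, mixed, shared and all regions. Outside TSS windows the first 3 of these shares were 5.33% (4.21 to 6.72%), 7.79% (7.0 to 8.67%) and 12.9%. The middle-aged-only regions therefore held both sets of letters less often than mixed regions did, a difference of 4.69 and 2.47 percentage points outside TSS windows. The corresponding difference for the CTCF consensus was 3.37 points in the other direction, 17.7% against 14.3%. When the rule was applied without 1 library, the CTCF difference was 1.33 points without middle-aged 2 and 1.89 without middle-aged 3. With equally long lists, each cut to the length of the shortest, it was 14.4. That value is for mostly other regions, as 31 of the 219 then meeting the rule were among the 1411. Most mixed regions had a young 2 peak, so these differences are largely against regions that young 2 called. Without young 2 the AP-1 difference, middle-aged-only minus mixed, was −2.40 points. Those for ETS and the CTCF consensus were then −3.59 and 3.07 points. Without middle-aged 3 the ETS difference was −1.50.

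Other motifs differed less from mixed regions. TEAD factors act in the Hippo pathway, and their letters ACATTCC were in 6.31% of middle-aged-only and 5.14% of mixed regions, against 2.19% of shared and 4.02% of all regions. The RUNX letters TGTGGTT, the site of the osteoblast factor Runx2 and its relatives, were in 9.57%, 9.61%, 6.78% and 8.63% in the same order. The EBF letters CCCNNGGG were in 9.36%, 7.81%, 10.2% and 8.72%, the CEBP letters TTGCNNAA in 11.9%, 11.2%, 9.72% and 10.9%, and the RBPJ letters TGGGAA, the site of the Notch effector, in 20.8%, 19.6%, 16.7% and 19%. The GC box GGGCGG of promoters was in 9.64%, 10.6%, 36.1% and 19.8%. The core AGGGGGC, which many CTCF sites contain and which overlaps the consensus above, was in 7.65%, 6.05%, 8.78% and 6.90%. The NFI letters TGGCNNNNNGCCA were in 0.992%, 1.11%, 1.00% and 1.02%, and the cyclic AMP response element TGACGTCA, which differs from the AP-1 letters by its spacing, in 0.213%, 0.477%, 1.80% and 0.912%.

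**Figure D2:**
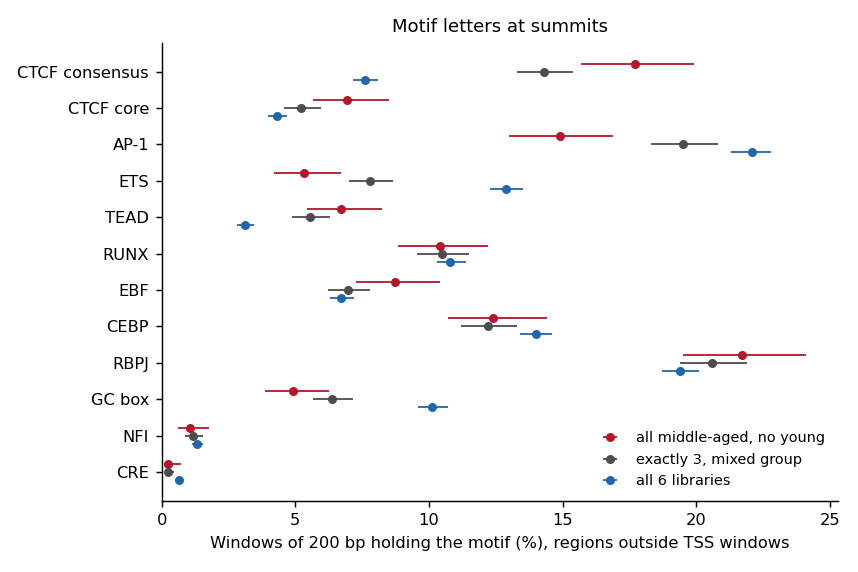
Share of 200 bp summit windows outside TSS windows that hold each motif, in percent on the horizontal axis, for middle-aged-only (red), mixed (grey) and shared regions (blue), with 95% Wilson intervals. The CTCF consensus is most frequent in middle-aged-only regions (17.7%), and AP-1 (14.9%) and ETS (5.33%) are least frequent there.

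Base composition was close to that of mixed regions. The median GC content of the windows was 49.5% in both sets and 56.0% in shared regions, and a window held on average 4.17 CpG dinucleotides against 4.30 and 10.2. Windows mostly soft-masked as repeats numbered 25 (1.77%), and their share in mixed regions was 2.52%.

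The 240 regions with the CTCF consensus had a median mean rank of 30.2, against 23.2 in the other 1171. Of them 21, or 8.75%, lay at a TSS, against 12.9% of the others.

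The values behind the calls were modest. Over the 1411 regions the median peak had a rank of 22.4, 23.9 and 26.2 in middle-aged 1, 2 and 3. Its summit pileup was 17, 17 and 19 reads, as solved from the deposited fold enrichment and p-value, and its height 6.69, 7.08 and 6.80 times the genome-wide background of the library. The mean rank of a region ran from 1.85 to 60.8 with a median of 24.4, and the SD over the 3 libraries had a median of 11.6. Shared regions had a median mean rank of 69.9 and mixed regions 22.8, so the middle-aged-only regions were weak calls much like the mixed ones. Their median width was 319 bp, against 308 and 549 bp in mixed and shared regions. A mean rank of at least 50 was reached by 31 regions (2.20%; 0.998% of mixed regions) and of at least 40 by 153 (10.8%; 7.61%).

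The heights were also set beside the call limits of the young lists. At its genome-wide background a peak was called from a height of 3.47, 3.53 and 4.86 in young 1, 2 and 3. After the middle-aged heights were scaled by the ratio of the heights at shared regions, which had a median of 11.2, 15.5 and 14.6 in the young and 17.3, 17.9 and 17.2 in the middle-aged libraries, the mean height was at or over the limit in 1360, 1411 and 1225 regions. Calls in every middle-aged library chose these regions, so high numbers follow in part from the rule. The group means of that height were 13.8 ± 2.28 and 17.5 ± 0.381 (SD, n = 3 each) for young and middle-aged. The groups did not overlap, at a two-sided exact permutation p of 0.1, below which 3 against 3 libraries cannot go. Local backgrounds were left out of these limits.

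The number of these regions depended on the peaks used. With a −log10 q of at least 5 there were 1099 such regions, of which 672 were among the 1411. With lists cut to the 27628 best peaks, the length of the young 3 list, there were 219 in middle-aged and 178 in young libraries, and 31 of the 1411 remained. The young lists held 35953, 43941 and 27628 peaks and the middle-aged lists 46364, 46745 and 48344. Both limits act on −log10 q, the value that ranks the regions, so by construction they favour regions of high rank. After scaling every list to the lowest of the 6 backgrounds, 1582 regions met the rule, of which 1177 were among the 1411. The rule also leaned on single libraries, as 3958 regions met it without young 2 and 1630 without young 3.

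**Figure D3:**
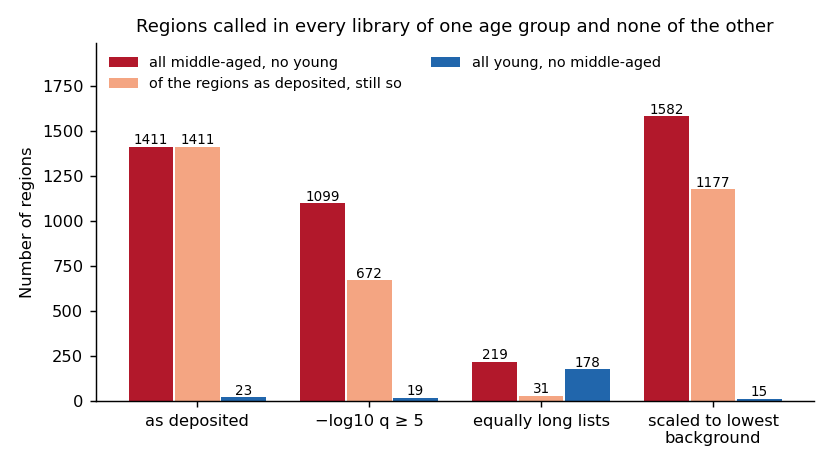
Number of regions called in all middle-aged and no young libraries (dark red), how many of the 1411 deposited-list regions are among them (light red), and number called in all young and no middle-aged libraries (blue), for 4 choices of peaks. With equally long lists the counts of both directions come to 219 and 178, and 31 of the 1411 regions remain.

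The region with the highest mean rank lay in an intron of Slc44a5, a choline transporter-like gene, 102061 bp from the nearest start site, that of the LIM homeobox gene Lhx8. Its ranks were 68.7, 47 and 66.8 in middle-aged 1, 2 and 3 and its summit pileups 31, 22 and 32 reads. Middle-aged 2 was the lowest of the 3. No young peak lay within 43041 bp, and the nearest shared region was 43035 bp away.

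An intergenic region near Aplnr, the apelin receptor of endothelial and stromal cells, had even values, with ranks of 56.6, 59.9 and 58.0 and pileups of 26, 26 and 28 reads. It lay 365 bp from a shared region, which also held the nearest young peak. The region nearest to Ccnh, which encodes cyclin H of the general transcription machinery, was 430658 bp from that start site and 145223 bp from any young peak, with ranks of 49.7, 56.7 and 70.2. These 2 regions show the range of settings, beside an open element or far from one.

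The other leading regions were near Fbrsl1, Rab3b, a GTPase of secretory vesicles, Eif4e, the cap-binding translation factor, Rftn1, a lipid raft protein, Ddx21, an RNA helicase of ribosome synthesis, Tomm20, a receptor of mitochondrial import, Sfmbt2, a Polycomb-related gene, and Ccdc182. Their mean ranks were between 53.2 and 58.4, and the highest SD over the 3 libraries was 14.7, at Rftn1. Only Mical2 among the 12 had its region at a TSS.

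**Figure D4:**
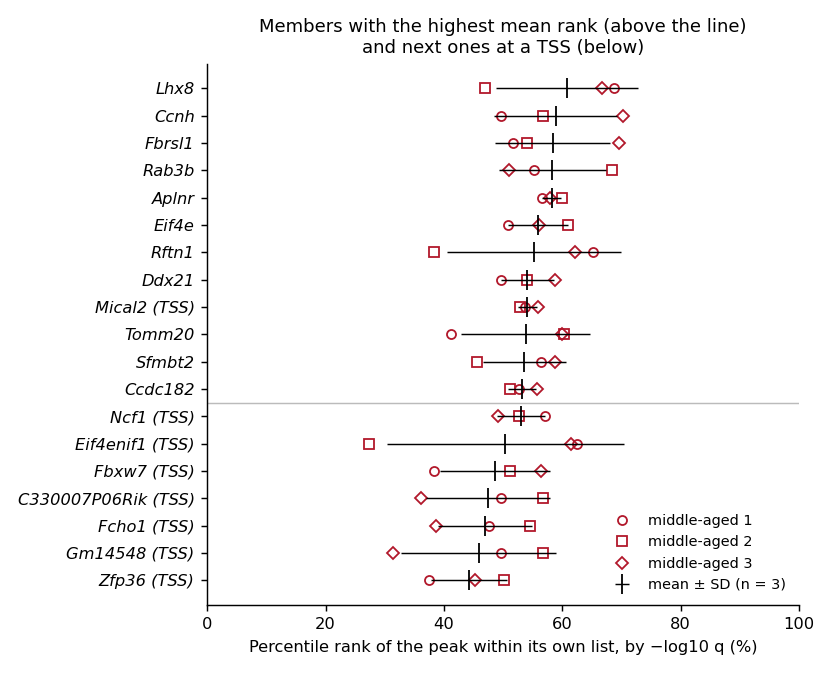
Percentile rank by −log10 q within each middle-aged list (symbols) for the 12 middle-aged-only regions with the highest mean rank, above the grey line, and for the next 7 at a TSS, below it, named by the nearest protein-coding gene, with mean ± SD of the 3 libraries in black. The mean ranks run from 60.8 at Lhx8 to 44.2 at Zfp36, and the SD is widest at Eif4enif1 (20).

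A TSS was within 1000 bp of 172 middle-aged-only regions, or 12.2% (10.6 to 14%). The share was 13.4% in mixed, 46.3% in shared and 25.2% in all regions. Introns held 602 regions, 42.7% (40.1 to 45.3%), against 47.0% (45.6 to 48.5%) of mixed regions and 27.3% of shared ones, and 537 regions, 38.1% (35.6 to 40.6%), were intergenic against 34.8% of mixed and 22.8% of shared regions. Untranslated and noncoding exons held 33 (2.34%) and 47 (3.33%), against 1.41% and 2.08% of mixed regions, and coding exons 20 (1.42%). Of the intronic regions 412 lay in an intron of their nearest gene and 190 in an intron of another gene only. The median distance to a protein-coding start site was 20843 bp, against 20826 bp in mixed and 3407 bp in shared regions. The middle-aged-only regions were thus as distal as the mixed ones, and the intronic intervals of the 2 sets did not overlap.

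**Figure D5:**
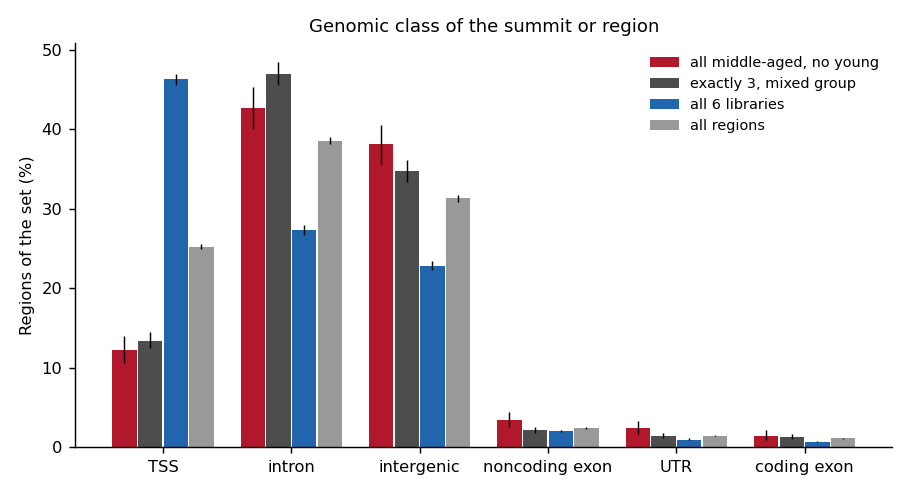
Share of regions, in percent, in each genomic class for middle-aged-only (red), mixed (dark grey), shared (blue) and all regions (light grey), with 95% Wilson intervals that cover counting error. Of middle-aged-only regions 12.2% lie at a TSS against 46.3% of shared regions, and the shares of middle-aged-only and mixed regions lie close together.

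The 172 regions at a TSS lay at 179 protein-coding genes. For 64 of these genes a shared region also lay in a TSS window of the same gene. The rule chose regions called in every middle-aged and no young library, so TSS peaks of that pattern follow in part from it. For 86 of the 179 genes at least 1 young library had a TSS peak. For 92 genes every middle-aged and no young library had one, a pattern whose share over all protein-coding genes was not taken. Examples, chosen after their values were seen, were Cd34, a surface marker of stromal and blood progenitors, Wnt11, a noncanonical Wnt ligand, Tbx2, a T-box repressor, Zeb1, a factor of mesenchymal state, Tnfrsf19, a TNF receptor family member, Lmod1, a smooth muscle actin nucleator, Pycard, the inflammasome adaptor, and Ptgfr, the prostaglandin F receptor.

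Most of the promoter calls at the examples from Cd34 to Ptgfr were weak. At Cd34 the ranks were 22.4, 11.8 and 0.798 in middle-aged 1, 2 and 3, at Zeb1 6.01, 15.9 and 5.57, and at Tbx2 19, 13.7 and 22. At Wnt11 they were 30.7, 20.5 and 39.3, with heights of 7.87, 7.49 and 8.95, and at Lmod1 42.6, 48.9 and 20.6. All 3 peaks at Zeb1 ranked low in their lists, while those at Wnt11 were of middling strength. Pycard varied most of these examples, with ranks of 48.8, 0.316 and 11.5.

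The strongest region at a TSS was that of Mical2, a monooxygenase that depolymerizes actin, with ranks of 53.7, 52.8 and 55.9 and heights of 9.45, 9.57 and 9.31. That of Ncf1, the p47 subunit of the phagocyte NADPH oxidase, followed with ranks of 57.1, 52.7 and 49.1 and heights of 15.4, 15.4 and 13.6. The next were at Eif4enif1, which carries the cap-binding protein into the nucleus, Fbxw7, a substrate receptor of ubiquitin ligases, C330007P06Rik, Fcho1, a protein of clathrin-coated pits, Gm14548 and Zfp36, which destabilizes inflammatory messages. Outside these regions, Mical2, Fbxw7 and Zfp36 had a TSS peak in all 3 young libraries and C330007P06Rik in 2. Ncf1, Eif4enif1, Fcho1 and Gm14548 had one in 0 young libraries. Zfp36 and Eif4enif1 had the highest mean heights, 22.8 and 21.7, but their local background was 7.42 and 5.88 times that of the genome, and shared regions lay 1568 and 5606 bp away. At Mical2 the local background was 1.04 times the genome's.

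High summits stood mostly beside shared regions. A mean height of 10 or more was found in 70 regions (4.96%), with a median local background 2.44 times the genome's and a median distance of 2052 bp to a shared region. In the other 1341 regions these values were 1.02 times and 23764 bp. The part of the local background in these heights was not tested.

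The median distance from a middle-aged-only region to the nearest shared region was 22149 bp, against 20470 bp for mixed regions. Within 1000 bp of a shared region were 81 (5.74%), against 7.76% of mixed regions, and within 10000 bp 392 (27.8%) against 31.9%. More than 100000 bp from one were 195 (13.8%) against 13.9%. The nearest peak of any young library was at a median of 9680 bp, and 132 regions (9.36%) had one within 500 bp, the nearest at 8 bp. The median distance to the next region of the same set was 381172 bp, against 114445 bp among the more numerous mixed regions, and 30 (2.13%) against 360 (7.81%) had one within 10000 bp.

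The shared regions beside them had ranks that overlapped between the age groups. Each of 1329 shared regions that were the nearest one to a middle-aged-only region was ranked among all shared regions within each library. Their median rank was 48.8, 47.3 and 46.6 in the 3 young libraries, by replicate number. The middle-aged libraries had 48.4, 48.5 and 48.8. The group means were 47.6 ± 1.11 (SD, n = 3) and 48.5 ± 0.209 (SD, n = 3) with a difference of 0.992 points, smaller than the young SD (two-sided exact permutation p = 0.300). The mean rank was higher in middle-aged libraries at 670 of them (50.4%), against 50.7% of all shared regions. For the shared neighbours of mixed regions the difference was 0.0112 points (two-sided exact permutation p = 1).

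All chromosomes but Y held middle-aged-only regions. Their share of the regions of a chromosome ran from 1.78% on chromosome 11 to 2.72% on chromosome 19, leaving out chromosome Y, which held 0 of 21 regions. Chromosome 2 held the most, 122, and chromosome X 28.

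The 1411 regions had 1302 different nearest protein-coding genes. A nearest gene was shared by 2 or more regions at 95 genes, which took 204 regions (14.5%), and 14 genes had 3. No gene had 4 or more. When the counts of mixed regions were scaled to the same number of regions, they gave 107 and 11.1 genes. Genes nearest to a middle-aged-only region had a median territory, the stretch in which theirs is the nearest start site, of 129 kb, against 127 kb for mixed regions and 46.4 kb for all protein-coding genes, and the 14 genes with 3 regions had 273 kb. The part of territory length in these counts was not tested. Of the 1302 genes 761 (58.4%) had a TSS peak in all 6 libraries and 243 (18.7%) in none. The shares were close to these for genes nearest to a mixed region (58.3% and 19.7%) and to any region (62.0% and 20.5%).

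The 14 genes with 3 regions were Bmf, Dst, Gna14, Pdgfc, Gm9844, Tgfbr2, Lmo4, Tacc1, Synpo2, Tmem26, Galnt2, Ank2, Rhou and Pi15. They were chosen for their count after no gene had reached the number set for naming. Bmf had the shortest territory of those with a TSS peak in any library, 60.3 kb. Its intronic region, 1619 bp from a start site, had ranks of 41.0, 48.6 and 49.9 and heights of 13, 14.6 and 14, and a young peak lay 384 bp away. It was also the only one of the 42 regions of these genes that remained with equally long lists. The other regions near Bmf, in an untranslated exon and in intergenic DNA, had ranks of 3.74, 49.8 and 17.8 and of 52.7, 11.8 and 26.2.

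The regions nearest to Tgfbr2, through which TGF-β activates Smad proteins, spread over 193854 bp from its start site. The closest, at 18897 bp, had ranks of 31, 40 and 34.6. The second, at 155605 bp, had 54.0, 23.9 and 11.9 and the third, beside a shared region 2498 bp away, had 3.51, 27 and 61.8. The order of the libraries was reversed between the second and the third, and the closest region was the most even. The gene also had 10 shared regions and a TSS peak in all 6 libraries.

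The other genes had regions of lower rank than Bmf. Dst encodes a linker of intermediate filaments and other cytoskeletal parts and had regions with mean ranks of 37.4, 23.3 and 7.28. Synpo2, an actin-binding protein of muscle, had 30.2, 25.8 and 14.4, and Ank2, an adaptor between membrane and spectrin, 25.1, 22.2 and 13.8. Pdgfc encodes a platelet-derived growth factor ligand and had 36.4, 16.7 and 7.32, and Gna14 a G protein subunit, with 36.9, 32.7 and 18.6. No TSS peak was called in a young library at Pi15, a secreted protease inhibitor family member, whose regions had 21.2, 16.4 and 8.66, the last of them at its TSS. At Gm9844, a predicted gene, no library had a TSS peak.

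Lists of pathway and cell type genes, whose members were chosen with earlier results of these data known, were set against the nearest genes, and of all regions 2.21% met the rule. In the TGF-β and BMP list 8 of 42 genes were nearest to 12 regions, 3.01% of the list's regions. Beside Tgfbr2 these were Acvr1, a type I receptor with 2, Nog with 2, and Id3, a target gene, with 1, and the other 4 genes had 1 each. The stronger region in Acvr1 had ranks of 31.3, 37.4 and 55.9 and heights of 12.2, 13.7 and 16.5. The 2 regions of Nog lay 1265 and 6711 bp from its start site, had ranks of 32.4, 32.6 and 38.2 and of 8.31, 36.8 and 34.7, and no shared region was nearest to that gene. Its TSS had a peak in 1 young and 2 middle-aged libraries.

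In the Wnt list 9 of 44 genes were nearest to 10 regions, 4% of the list's regions. The receptor gene Fzd1 had 2 of them, with mean ranks of 27.1 and 12.9, and the highest mean rank was 39.3, near the receptor gene Fzd5. Wnt11, described above, and Tcf7l2, a nuclear effector of the pathway, with a mean rank of 26.9, had 1 region each. In the Notch list 5 of 36 genes were nearest to 5 regions (2.51%). They were the receptor genes Notch2 and Notch3, Maml2, a coactivator, Psen2, a γ-secretase subunit, and Numb, an inhibitor, with mean ranks from 10.9 at Notch3 to 32.2 at Numb.

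Where at most 5 genes of a list had a region, all are named, some of them after their values were seen. The contractile list had the highest share, 5 of its 18 genes with 5 regions, 6.10% of the list's regions. The genes were Srf, the serum response factor, with a mean rank of 43.8, Lmod1 (37.3), Cald1 (14.3), Myocd, the Srf coactivator (8.99), and Actn1 (4.91). The region in the intron of Srf had heights of 14.2, 18.3 and 12.5 and lay 52 bp from a young peak. In the list of senescence and inflammation genes 9 of 40 were nearest to 10 regions (4.07%). Cdkn2b, the cell cycle inhibitor p15, had 2 with ranks of 22.4, 47.9 and 40.5 and of 10.9, 8.62 and 47.9, and the highest mean rank among the others was 38.7, at the TSS of Igfbp4, with a young peak 77 bp away. Next were Tnfaip3, an inhibitor of NF-κB signalling, and the cytokine gene Il1b, with 35.7 and 27.9. Small counts such as these are a description of the lists, and nothing is particular to a list from them.

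Lists of lineage genes had shares near that of all regions, 2.42% for the stromal and progenitor, 1.79% for the osteogenic, 2.17% for the adipogenic and 2.38% for the chondrogenic list. The stromal and progenitor list had 4 of 21 genes, Kitl, Postn, Cxcl12 and Cd34, and the osteogenic list 2 of 22, Foxp1 and Col1a1. The regions lay 145300, 57252, 326591 and 0 bp from the start sites of the stromal and progenitor genes, in that order. From those of Foxp1 and Col1a1 they lay 42384 and 2558 bp. The adipogenic list had 3 of 22, Adipoq, Zfp521 and Zfp423, and the chondrogenic list 2 of 15, Comp and Sox9. The adipogenic regions lay 13394, 16350 and 51112 bp from the start sites, and that of Sox9 542588 bp. The region at Comp, a cartilage matrix protein, had ranks of 26.8, 65.8 and 58.2, the highest mean of these lists, but lay in an untranslated exon of the neighbouring gene Crtc1, 3319 bp from the Comp start site. Matrix genes were nearest to 8 regions at 6 of 40 genes (3.09%), among them Thbs2 and Thbs1 with 2 each, then Tnc and Postn. Adhesion and guidance genes were nearest to 14 regions at 14 of 40 genes (2.82%), led by Ntm, Slit3, Cdh4 and Sema3a. Mesenchymal transcription factors had 5 regions at 5 of 44 genes, 1.28% of the list's regions, at Runx1, Klf4, Zeb2, Zeb1 and Tcf4.

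Lists of other cell types held 1.49% (hematopoietic), 2.15% (macrophage), 2.13% (endothelial) and 0% (neural) of their own regions. Of 26 hematopoietic genes only Ptprc was nearest to a region, 482513 bp away. Of 17 macrophage genes Msr1 and Lyz2 were, with mean ranks of 50.1 and 31.5 and a shared region 410 and 194 bp away. Of 18 endothelial genes Egfl7 and Vwf were, and the region at Egfl7, with ranks of 48.5, 57.9 and 49.0, remained with equally long lists. Of 18 neural genes 0 were nearest to a region.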

How the data were processed

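The deposited data were 6 MACS peak lists, 1 per library, from 3 young and 3 middle-aged ATAC-seq libraries; groups came from the sample titles. Per the paper's methods the authors made reads with bcl2fastq, aligned them to mm10 with Bowtie2, removed duplicates with Sambamba and called peaks; a transposase shift is not given in the sources used here. The authors deposited, per peak, a fold enrichment ratio, a score, and the −log10 p-value and −log10 q-value. Summit pileup and local background were solved from the deposited fold ratio and −log10 p under the caller's Poisson model, and height is pileup over the list's lowest background, which ran from 1.65 to 3.75 extended reads per base. Depth as a read number is unknown. Peaks were merged into regions, a region's value in a library was that of its peak with the highest −log10 q, and genes, TSSs and exons came from GENCODE M21. A gene list's share is of all regions nearest to its genes. Named were the 12 regions of highest mean rank, the 8 highest at a TSS, up to 4 genes per list, and exceptions stated as such. The regions and lists were chosen with earlier results of these data known. Per-library medians were tested by exact permutation, with 20 possible assignments of the libraries. Python 3.11.15, numpy 2.4.6, scipy 1.17.1 and pandas 2.3.3 were used, and merging and solving were tested on simulated data. The CTCF consensus was added after sequences had been read. One sequence window and the values of one gene are not reported here.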

Additional observations from a re-analysis of the deposited data

How the results depend on the processing

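The number of middle-aged-only regions (1411) and of genes with 3 of them (14) depended on the peaks used. With equally long lists they were 219 and 0, and with a −log10 q of at least 5 a single gene (1) was left. Leaving out 1 library, which loosens the rule, gave 1630 to 3958 regions and 18 to 139 genes, the most without young 2 (3958 and 139) and many more also without young 1 (2127 and 38) or middle-aged 1 (2853 and 54), 2 (2760 and 69) or 3 (2500 and 43). Without regions that had a young peak within 500 bp 9 genes were left, and with genes of any type 2. The share at a TSS was 12.2%, and 14.2% with equally long lists, 10.0% without a young peak within 500 bp, 16.4% with a TSS window of 2500 bp, and 11.4 to 13.4% with 1 library left out. The intronic share was 42.7%, and 42.3 to 45.4% with 1 library left out. The median distance to a shared region, 22149 bp, was 24965 bp at the higher q limit, 24836 bp without a young peak within 500 bp and 16910 bp when 5 libraries sufficed for a shared region, and 17228 to 23058 bp with 1 library left out.

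The rank difference at neighbouring shared regions, 0.992, reversed to −0.568 at the higher q limit and −1.19 with equally long lists. It ran from −0.329 to 0.736 with 1 library left out, below 0 without young 2 (−0.105) or young 3 (−0.329). With only neighbours within 50000 bp it was 0.970, at a two-sided exact permutation p of 0.1, below which 3 against 3 libraries cannot go. After scaling to the lowest background it was 0.588. The height difference, 3.70, ran from 2.43 to 4.47 with 1 library left out. With the replicate block, equal numbers paired, the differences were 0.992 and 3.70 with p = 0.500 and p = 0.25 (exact sign permutation, whose smallest p is 0.25). Deviations of equal-numbered libraries correlated at 0.00105, 0.0156 and −0.0248 over 22403 shared regions, and equal numbers were therefore not taken as pairs.

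Of the motif differences from mixed regions outside TSS windows, in percentage points and under alternatives chosen after seeing the data, those for AP-1 and ETS stayed below 0 and that for the CTCF consensus above 0 throughout. With equally long lists the AP-1 difference was −8.58 and the CTCF difference 14.4. Values with equally long lists describe mostly other regions, as 31 of the 219 regions then meeting the rule were among the 1411. The 219 included 11 of the 12 regions of highest mean rank, whose windows were read before the consensus was searched. The 14.4 therefore does not show a larger CTCF difference for the 1411. Against mixed regions of 2 middle-aged and 1 young library the CTCF difference was 2.52. It was 1.33 to 4.74 with 1 library left out, lowest without middle-aged 2, where its interval included 0 (−0.418 to 3.07). With no letter off it was 1.23 and its interval also included 0 (−0.320 to 2.78). The EBF difference, 1.75, reversed to −0.204 at the higher q limit, −0.284 with equally long lists and −0.597 without young 2 (−0.597 to 1.66 with 1 library left out), and the TEAD difference, 1.16, to −0.0812 with equally long lists. The cause of these changes was not tested.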
